A study of Mus musculus with 4 samples.

Results

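Potassium channel genes are the genes whose mouse symbol starts with Kcn, which name the pore-forming subunits of potassium channels and most of the subunits that assemble with them. They were taken here as every non-control array probe whose RefSeq mRNA accession (NM) maps to such a symbol. This gave 146 probes of 94 genes, out of 56558 usable probes and 23771 gene symbols on the array. The RNA came from the mouse sarcoma line S-180, which was kept in RPMI medium with 10% fetal bovine serum. The cells were cultured for 12 h without treatment (control, 2 arrays) or with fluoxetine at 20 µM (2 arrays), an antidepressant that inhibits serotonin reuptake. The labels say nothing of a vehicle. Samples of a group are labelled biological replicates, with no word on whether the cultures were separate, so p-values measure only the spread between these samples.

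Potassium channels let potassium leave the cell along its gradient, which holds the membrane potential negative and sets cell volume. Voltage-gated channels open on depolarisation, inward rectifiers and two-pore channels carry current near rest, and calcium-activated channels open when internal calcium rises. Accessory subunits change the gating, trafficking or stability of the pores they join. In tumour cells several of these channels are known for effects on proliferation and migration, and fluoxetine itself is known to block some of them, among them the channels encoded by Kcnk2 and Kcnh2. Transcript amounts, measured here, say nothing of that block.

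Values are the deposited processed signal divided by the 75th percentile of its array and given in percent, called the scaled signal below. The 75th percentile of the signal over probes was 449 and 415 on the control arrays and 356 and 419 on the fluoxetine arrays. Detected means that a probe was marked well above background by the scanner software on both arrays of a group, and the lowest scaled signal so marked lay between 3.78% and 4.97% over the 4 arrays. Some probes not so marked had a higher signal. A fold given below as at least rests on that lowest signal and is not a strict lower bound. A gene was tested when a probe was detected in at least 1 group, was represented by its brightest detected probe, and is called, or said to rise or fall, at an adjusted p under 0.05 in limma over all 13538 genes tested. Changes are log2 values, fluoxetine minus control, with the standard error from limma (n = 2 arrays per group). Signals of different probes are not comparable with each other, so genes are not ranked by level.

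The arrays shared 1 slide and 1 scan, with each group at neighbouring places, so that place and group cannot be told apart. Between 51.7% and 53.5% of non-control spots were well above background. Of 10 mesenchymal and sarcoma markers 7 were detected in control, Vim, S100a4 and Cd44 among them, while Col3a1, Pdgfrb and Thy1 were not well above background on any array, and their summed scaled signal was 9171% to 10450% in control and 9617% to 9956% with fluoxetine. With fluoxetine 6 of the 10 were detected: the collagen gene Col1a2 fell at least 2.38-fold and was no longer detected. Of 6 epithelial markers 4 were detected in control, Krt8 and Krt18 among them, but not Cdh1, and the sums were 22261% to 23618% and 19327% to 19823%. Neuronal markers, which bear on channel genes known from neurons, were detected in control for 3 of 8 and summed to 484% to 552% in control and 401% to 404% with fluoxetine; Snap25 fell, Syp rose, and Syt1, Map2 and Nefl were not well above background on any array. Leukocyte markers (5 of 8 detected in control, Ptprc and Adgre1 on no array) summed to 3792% to 4120% and 6428% to 7306%, and their called members went both ways. Cd68 rose from 1950% and 2191% to 5850% and 5024%, Cd3e rose by 0.52, and Itgam fell from 492% and 483% to 124% and 127%. Glial markers (3 of 4 detected, Gfap on no array) summed to 2245% to 2443% and 2796% to 2802%, muscle markers (1 of 7 detected) to 21.5% to 34.5% and 27.1% to 33.8%, and endothelial markers (1 of 4 detected) to 24.4% to 28.7% and 26.7% to 32.6%. The part of any of these in the values below was not tested.

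Most potassium channel genes gave no usable signal in these cells. Of the 94 genes, 28 were detected in control (29.8%, against 60.5% of all genes with such a probe) and 30 with fluoxetine (31.9%, against 61.0%), and 24 in both. No probe of 53 genes was well above background on any array. Detection was highest among voltage-gated genes, where 16 of 40 were detected in control and 15 with fluoxetine. It was 3 and 4 of 15 inward rectifiers, 3 and 5 of 14 two-pore genes, 2 and 2 of 8 calcium-activated genes, and 4 and 4 of 17 accessory genes. The group named calcium-activated here also takes in Kcnu1 and the sodium-activated channel genes Kcnt1 and Kcnt2.

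**Figure D1:**
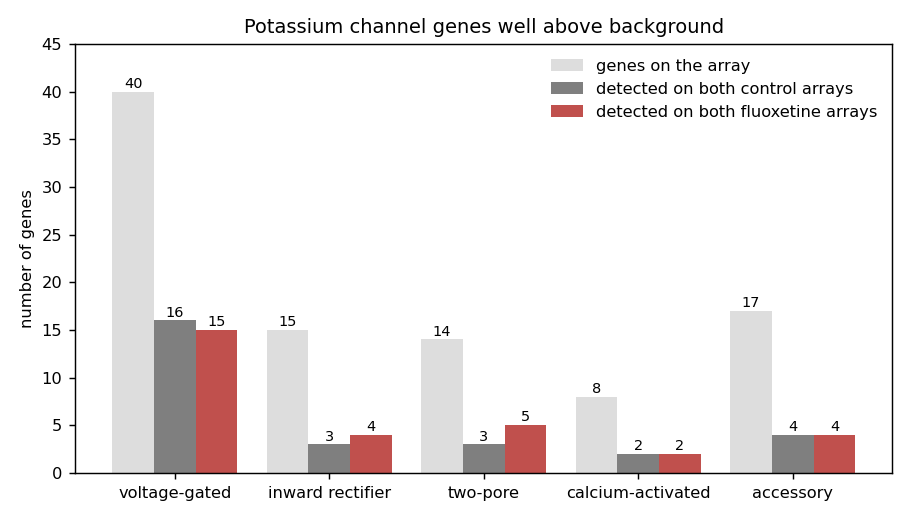
Number of potassium channel genes (vertical axis) in each subfamily on the array (light bars) and detected on both control (grey) or both fluoxetine (red) arrays. The light bars stand far above the others in every subfamily, and the highest share in control is 16 of 40 voltage-gated genes.

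Among the genes without a usable probe were Kcnma1, the large-conductance calcium-activated pore, with none of its 4 probes above background, and all 4 of its beta subunit genes (Kcnmb). The cardiac and epithelial pore gene Kcnq1 and the G protein-gated rectifier genes Kcnj3, Kcnj5 and Kcnj6 were likewise not above background on any array, as were the voltage-gated pore genes Kcna1 to Kcna5. The acid-sensitive leak channel gene Kcnk3 was not above background, nor were the sodium-activated channel genes Kcnt1 and Kcnt2. A further 7 untested genes, Kcnab2, Kcne3, Kcnh6, Kcnip2, Kcnj2, Kcnn3 and Kcnrg, had no counted probe well above background on more than 1 array of either group. Kcnh6 also has a probe with a predicted-transcript accession, outside the rule, which was well above background on 1 control array and both fluoxetine arrays (8.44% and 5.79%, then 11.0% and 9.02%). Not being well above background does not show that a transcript was absent.

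Of the 34 genes tested, 6 rose (17.6%, against 16.8% of all genes tested), 7 fell (20.6%, against 10.2%) and 21 were not called. In either direction 38.2% were called, against 27.0% of all genes tested. The tested potassium channel genes were dimmer, with a median scaled signal in control of 22.8% against 293% over all genes tested. The shares are therefore not those of genes of like signal. Of the 34, 3 were called with a fitted change of at least 2-fold (8.82%, against 4.58%). These were Kcna6, Kcns1 and Kcnc4, all among the 7 falls and not detected with fluoxetine, so that they were tested through control alone. Of the 6 rises, that of Kcnk2 was likewise tested through fluoxetine alone. Where a probe had to be well above background on all 4 arrays, 5 of 24 potassium channel genes rose and 4 fell. Of all 12732 genes tested so, 4162 were called, 2600 of them higher. The groups did not overlap for 26 of 34 genes (76.5%, against 72.5%). The median change was 0.17, against 0.06 over all genes. The direction split depends on the scaling: with each array centred on its median, where the median change of all genes was 0.27, 13 potassium channel genes were higher and 6 lower, and 87.1% of all calls were higher against 62.3% in the main scaling. In these bulk samples a lower transcript amount per cell cannot be told apart from fewer cells with the transcript.

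**Figure D2:**
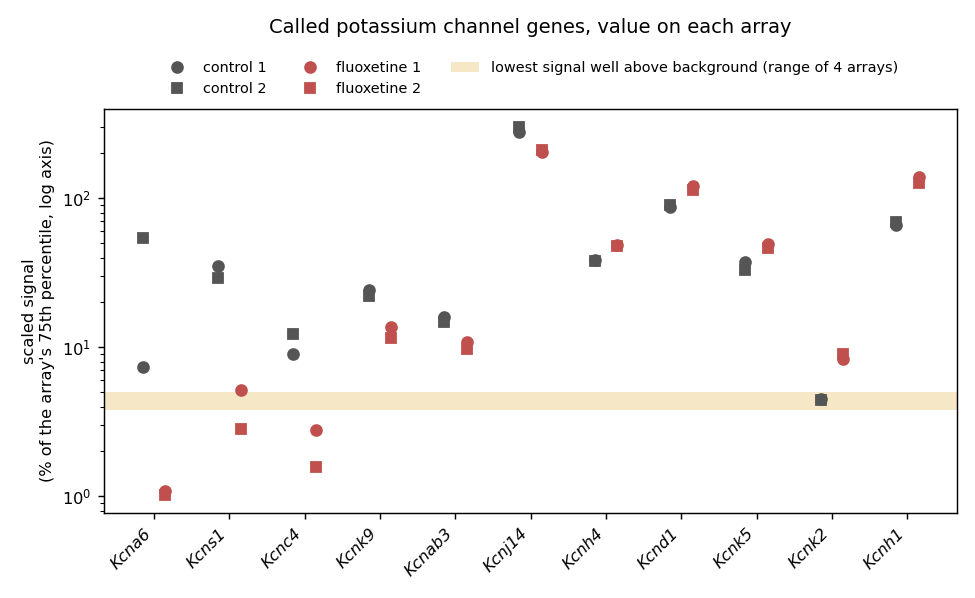
Scaled signal (percent of the array's 75th percentile, log axis) of 11 called potassium channel genes on each of the 4 arrays, ordered by change; the band spans the lowest signal marked well above background on each array. Control points (grey) and fluoxetine points (red) do not overlap for any of these genes, which were chosen by the same comparison. Of all genes tested 72.5% did not overlap. The control values of Kcna6 lie far apart, at 7.39% and 54.0%.

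Promoters of genes that moved in each direction are shown for reference, as the 250 bases before the annotated start (RefSeq, GRCm38.p6, gene strand, 5′ to 3′). A promoter was at hand for 69 of the 94 genes and for 7 of the 13 called genes, and the 4 printed are those of Kcns1 and Kcnc4, which fell, and Kcnh1 and Kcnk5, which rose. Capitals mark the GC box GGGCGG, read on both strands. Coordinates are chr2:164171114-164171363 (minus strand) for Kcns1, chr3:107458899-107459148 (minus) for Kcnc4, chr1:192190527-192190776 (plus) for Kcnh1 and chr14:20181783-20182032 (minus) for Kcnk5.
Kcns1: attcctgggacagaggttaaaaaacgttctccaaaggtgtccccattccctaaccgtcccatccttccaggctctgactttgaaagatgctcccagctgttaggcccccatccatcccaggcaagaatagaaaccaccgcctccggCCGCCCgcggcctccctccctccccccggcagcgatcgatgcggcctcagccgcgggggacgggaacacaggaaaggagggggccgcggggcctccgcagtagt
Kcnc4: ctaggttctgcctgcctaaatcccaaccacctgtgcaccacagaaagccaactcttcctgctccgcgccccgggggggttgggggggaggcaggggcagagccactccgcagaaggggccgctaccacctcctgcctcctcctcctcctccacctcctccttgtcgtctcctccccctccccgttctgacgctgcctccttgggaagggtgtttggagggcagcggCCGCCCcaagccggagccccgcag
Kcnh1: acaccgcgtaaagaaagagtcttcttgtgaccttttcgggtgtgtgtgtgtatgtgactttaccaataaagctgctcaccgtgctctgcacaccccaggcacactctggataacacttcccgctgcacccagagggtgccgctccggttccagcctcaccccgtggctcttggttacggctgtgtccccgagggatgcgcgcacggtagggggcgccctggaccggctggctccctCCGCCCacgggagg
Kcnk5: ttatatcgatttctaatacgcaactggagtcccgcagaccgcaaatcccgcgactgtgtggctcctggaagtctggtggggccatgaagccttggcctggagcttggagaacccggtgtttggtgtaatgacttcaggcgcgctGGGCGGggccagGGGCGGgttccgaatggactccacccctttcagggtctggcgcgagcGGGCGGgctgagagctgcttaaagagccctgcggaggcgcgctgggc
The GC box was in 6 of 10 promoters of called genes (Kcnk2 has 4 annotated starts), in 44.7% of the 94 promoters of potassium channel genes and in 32.7% of all 32851 promoters. Each of the 4 printed promoters holds it. Of those not printed, the promoter of Kcna6, which fell, and some of those of Kcnk2, which rose, do not. The TATA box TATAAA was in none of the 10, in 3.19% of the channel promoters and in 12.4% of all. The E-box CACGTG was in 1 of the 10 (Kcnh4), in 6.38% of the channel promoters and 6.02% of all. The cyclic AMP response element TGACGTCA and the C/EBP-ATF element TGATGCAAT were in none of the channel promoters, against 1.55% and 0.167% of all. The half-sites TTCAGCACC and GGACAGC of the element bound by the repressor REST were in 1 (1.06%) and 10 (10.6%) of the 94 channel promoters. They were in 0.301% and 5.28% of all promoters and in none of those of called genes. The 94 promoters come from 69 genes, with each start counted, and nothing is read from a single match. Median GC content was 63.0% in the 10 promoters, 58.6% in the channel promoters and 52.4% in all, and its part in these shares was not tested. These matches were not tested and overlap no measurement of binding.

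Voltage-gated genes gave 4 rises, 4 falls and 10 uncalled genes among 18 tested, with a median change of 0.30. Of all genes tested 16.8% rose and 10.2% fell. The counts by subfamily, here and below, are small, and nothing is read from them against these shares. In the 3 largest falls, of Kcna6, Kcns1 and Kcnc4, the gene was no longer detected with fluoxetine. Kcns1, an electrically silent subunit that modifies other voltage-gated channels, had a scaled signal of 35.4% and 29.4% in control and 5.15% and 2.84% with fluoxetine. It was detected on both control arrays and on neither fluoxetine array, so its fall has only a bound, at least 7.30-fold (fitted change −3.07 ± 0.32, adjusted p = 0.0140 in limma). The bound ran from 6.26-fold to 8.52-fold when each array was left out in turn.

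Kcnc4, which encodes a fast-inactivating pore of the high-threshold Kcnc group, was at 8.99% and 12.3% in control and 2.78% and 1.57% with fluoxetine. It fell at least 2.42-fold and was detected on neither fluoxetine array (fitted change −2.33 ± 0.34, adjusted p = 0.0206). Kcnc1, another pore of that group, was at 1.28% and 7.77% in control and 32.4% and 9.90% with fluoxetine, with arrays of each group far apart. It was not called (2.51 ± 1.09, adjusted p = 0.160), and its change ran from 1.20 to 3.81 when each array was left out in turn.

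Kcna6, a delayed rectifier pore, was at 7.39% and 54.0% in control and at 1.08% and 1.02% with fluoxetine, where it was not detected. It fell at least 4.61-fold (fitted change −4.25 ± 1.01, adjusted p = 0.0485), but the bound dropped to 1.70-fold when control 2 was left out and reached 12.4-fold when control 1 was. Its other probe was not above background on any array. The call ended under 8 of 13 alternatives, with adjusted p from 0.0512 (percentile over all spots) to 0.166 (without fluoxetine 1) in these, quantile normalization (0.0626) and the mean over detected probes (0.0520) among them.

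Among the rises, Kcnh1, the ether-à-go-go pore known from many tumour cells, was at 66.5% and 69.0% in control and 138% and 127% with fluoxetine, with both treated values far above both controls. It rose by 0.97 ± 0.08 (adjusted p = 0.0119), and its second detected probe went from 7.47% and 7.46% to 26.1% and 23.8%, a change of 1.74.

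Kcnd1, a pore of transient A-type current, was at 87.0% and 90.5% in control and 121% and 113% with fluoxetine. It rose by 0.40 ± 0.08 (adjusted p = 0.0361), and its second detected probe by 0.92. Kcnh4, a pore of the ELK branch, was at 38.7% and 38.0% in control and 48.4% and 48.0% with fluoxetine. Its rise was the smallest called among these genes, 0.33 ± 0.07 (adjusted p = 0.0415), and its other detected probe changed by 0.10. The call ended under 10 of 14 alternatives, among them the mean over detected probes (adjusted p = 0.0919) and an intensity trend in the variance (adjusted p = 0.0752).

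**Figure D3:**
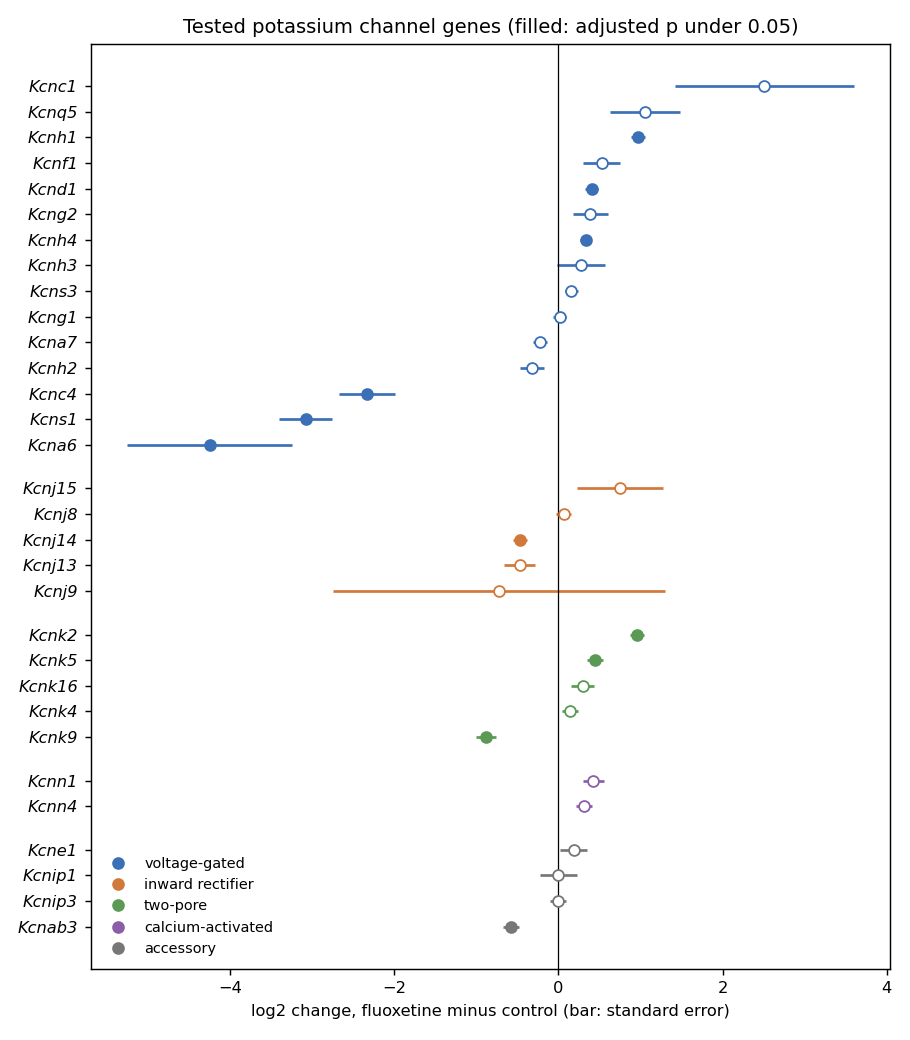
Log2 change, fluoxetine minus control (horizontal axis, with the standard error as bars), of 31 tested potassium channel genes by subfamily; filled points have an adjusted p under 0.05. Called changes run from −4.25 (Kcna6) to 0.97 (Kcnh1), and the widest bar belongs to the uncalled Kcnj9.

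The other silent subunit genes did not follow Kcns1 past the threshold. Kcns3 was at 494% and 528% in control and 570% and 569% with fluoxetine (0.16 ± 0.08, adjusted p = 0.204). Kcng1 was at 47.3% and 50.4% in control and 49.5% and 49.3% with fluoxetine (0.02 ± 0.08), the smallest change among voltage-gated genes, with overlapping groups. Kcnf1 was at 9.06% and 10.6% in control and 17.1% and 11.6% with fluoxetine (0.53 ± 0.22, adjusted p = 0.154), and Kcng2 changed by 0.39, also not called. The other probe of Kcng2, well above background on 1 control array only, went the other way. It was at 1.42% and 9.28% in control and 1.20% and 1.04% with fluoxetine. Whether the change of Kcns1 differs from those of the other silent subunit genes was not tested.

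Kcnq5, a pore of M-current type, was at 11.7% and 7.19% in control and 26.8% and 13.6% with fluoxetine (1.06 ± 0.43, adjusted p = 0.138). The groups did not overlap, but the fluoxetine arrays lay apart. Kcnh2, the ERG pore that many drugs block, was at 130% and 165% in control and 122% and 113% with fluoxetine (−0.32 ± 0.15, adjusted p = 0.177), and its second detected probe went the other way (0.31). Kcnc1, Kcng2, Kcnj9, Kcnj15 and Kcnk16 were well above background on 1 of the 2 control arrays only, and Kcnj13 on 1 of the 2 fluoxetine arrays. Kcnh3 (0.27) overlapped between groups, and Kcna7 (−0.22) was not called.

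**Figure D4:**
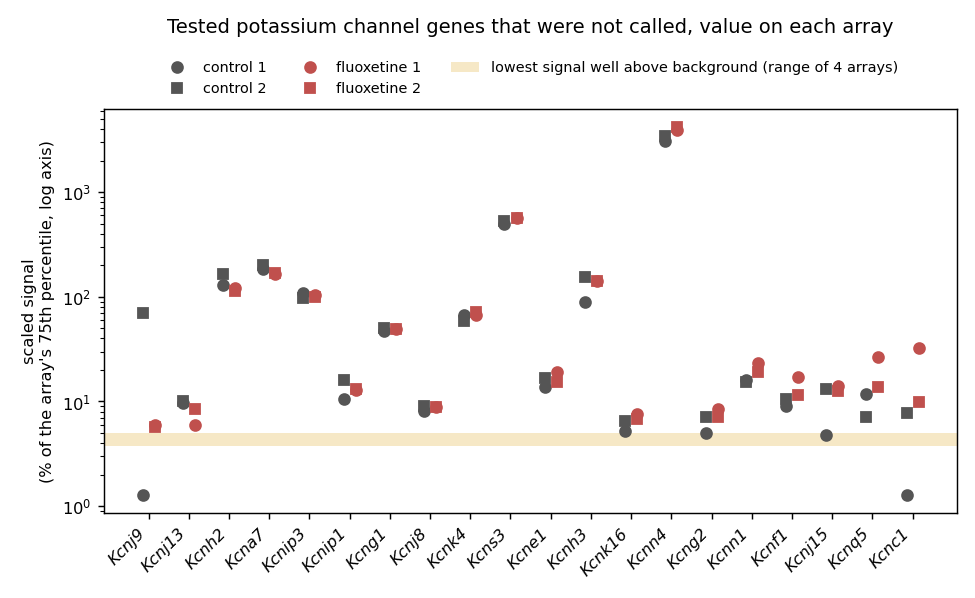
Scaled signal (percent of the array's 75th percentile, log axis) of 20 tested potassium channel genes that were not called, on each of the 4 arrays. Kcnj9, Kcnc1, Kcnj15 and Kcnq5 show arrays of 1 group far apart, whereas Kcnip3, Kcng1 and Kcnj8 lie close together in both groups.

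Two-pore leak channel genes gave 2 rises, 1 fall and 2 uncalled genes among 5 tested, and the groups of all 5 did not overlap (72.5% of all genes tested did not). Kcnk2, which encodes the stretch- and lipid-sensitive channel TREK, was at 4.47% and 4.46% in control, where it was not detected on either array, and at 8.34% and 9.01% with fluoxetine. It was thus tested through fluoxetine alone, the group where it was higher. It rose at least 1.84-fold (fitted change 0.96 ± 0.08, adjusted p = 0.0119). Kcnk5, an alkaline-activated leak channel linked to volume regulation, was at 37.2% and 33.1% in control and 49.3% and 46.2% with fluoxetine, and rose by 0.44 ± 0.10 (adjusted p = 0.0426). Kcnk9, an acid-inhibited leak channel, was at 24.3% and 22.2% in control and 13.7% and 11.6% with fluoxetine. It fell by 0.88 ± 0.12 (adjusted p = 0.0189), opposite to Kcnk2 and Kcnk5. The other probe of Kcnk9 was not above background on any array. Kcnk16 (5.26% and 6.56% in control, 7.61% and 6.81% with fluoxetine; 0.29 ± 0.14) and the TREK relative Kcnk4 (66.4% and 58.9%, then 66.6% and 71.7%; 0.14 ± 0.10) were not called.

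Inward rectifier genes gave 1 fall, no rise and 4 uncalled genes among 5 tested. Kcnj14, a strong rectifier of the Kir group, was at 276% and 299% in control and 205% and 212% with fluoxetine, and fell by 0.46 ± 0.08 (adjusted p = 0.0296). With median centring of the arrays it was no longer called. The other probe of Kcnj14 was not above background on any array. Kcnj8, the pore of an ATP-sensitive channel, was at 8.07% and 8.97% in control and 8.83% and 8.94% with fluoxetine, a difference of 0.06 ± 0.09. Kcnj13, a weak rectifier of epithelia, was at 9.61% and 10.2% in control and 6.02% and 8.44% with fluoxetine (−0.47 ± 0.19, adjusted p = 0.134). Kcnj15 was at 4.79% and 13.3% in control and 14.1% and 12.7% with fluoxetine (0.75 ± 0.52). The G protein-gated subunit gene Kcnj9 was at 1.29% and 70.7% in control and 5.91% and 5.69% with fluoxetine, so that its direction turns on 1 array: its change of −0.72 ± 2.02 became −3.61 with control 1 left out and 2.17 with control 2 left out.

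Calcium-activated genes were tested for Kcnn1 and Kcnn4 only, and neither was called. Kcnn4, the intermediate-conductance channel of non-excitable cells and many tumours, was at 3049% and 3431% in control and 3889% and 4152% with fluoxetine (0.31 ± 0.10, adjusted p = 0.0862). Its 2 other detected probes changed by 0.57 and 0.26, so all 3 were higher with fluoxetine. Kcnn1, a small-conductance channel, was at 16.1% and 15.5% in control and 23.4% and 19.1% with fluoxetine (0.42 ± 0.13, adjusted p = 0.0775). With median centring both were called higher. Kcnn4 was also called higher with the mean over its detected probes (0.38, adjusted p = 0.0422 in limma) and with the intensity trend. Kcnn1 was also called higher with quantile normalization (0.57, adjusted p = 0.0424). In the other alternatives neither was called.

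Accessory genes gave 1 fall, no rise and 3 uncalled genes among 4 tested. Kcnab3, a cytoplasmic beta subunit of Kcna-type channels, was at 16.1% and 14.9% in control and 10.9% and 9.79% with fluoxetine, and fell by 0.58 ± 0.10 (adjusted p = 0.0261). With normexp its change was −0.16 (adjusted p = 0.308), and the call also ended with the intensity trend (adjusted p = 0.0906). Kcne1, the single-span partner of Kcnq1, was at 13.7% and 16.7% in control and 19.2% and 15.4% with fluoxetine (0.19 ± 0.17), with overlapping groups. The calcium-binding partner genes of Kcnd channels were not called, and the groups of their tested probes overlapped: Kcnip3 was at 108% and 96.8%, then 104% and 99.2% (−0.01 ± 0.09), and Kcnip1 at 10.6% and 16.1%, then 13.0% and 13.1% (−0.00 ± 0.22). A second detected probe of Kcnip3 was at 27.0% and 27.1% in control and 22.3% and 21.5% with fluoxetine, a change of −0.30 with groups that did not overlap. The partner pore gene Kcnd1 rose, as given above.

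The calls rest on few arrays. Without fluoxetine 1 or without fluoxetine 2, limma called no potassium channel gene (adjusted p from 0.0546 to 0.176 and from 0.0548 to 0.152 for the 13 genes, with 12 and 16 of 34 at an unadjusted p under 0.05), and no gene at all. Without control 1, Kcnh1, Kcnk2, Kcns1 and Kcna6 remained called of the 13, and without control 2, 9 of 13 did. The sign of all 13 changes was the same under every alternative in which the gene was measured. Of the alternatives in which each was measured, the call was lost in 3 of 13 for Kcns1, 3 of 14 for Kcnh1, 4 of 14 for Kcnk9, 5 of 13 for Kcnc4 and for Kcnk2, 7 of 14 for Kcnab3, Kcnd1 and Kcnk5, and 8 of 14 for Kcnj14. With normexp background correction, whose added offset of 50 compresses dim signals, the fitted changes were −0.85 for Kcns1, −1.07 for Kcna6, −0.28 for Kcnc4 and 0.26 for Kcnk2, and of these only Kcns1 stayed called. Kcnk9 stayed called at −0.39.

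Other genes of potassium transport were counted in the same fit from a list of 55 genes. Of 36 tested, 9 rose (16.8% of all genes tested did), 4 fell (10.2% of all) and 23 were not called, with a median change of 0.14 against 0.06 over all genes. The counts by list below are small, and nothing is read from them against those shares. Among 10 pump genes tested 1 rose and 1 fell, and the rise was that of the pump regulator gene Fxyd1, by 0.79 ± 0.10. The uncalled beta subunit gene Atp1b2 (1.09 ± 0.53) had 1 fluoxetine array far above the other, at 61.7% against 22.1%, and Atp4b changed by 0.34.

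Among cation-chloride cotransporters 2 of 7 rose and 1 fell. Slc12a2, which brings sodium, potassium and chloride into the cell, was at 1656% and 2518% in control and 871% and 995% with fluoxetine and fell by 1.13 ± 0.23 (adjusted p = 0.0372). The potassium-chloride exporter gene Slc12a7 rose by 0.41 ± 0.08. Another exporter, Slc12a4, was at −0.28 and not called, nor was Slc12a8, at 0.65.

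Among other channels and channel partners 3 of 10 rose and 1 fell. Tmem38a, an intracellular cation channel of the endoplasmic reticulum, rose by 0.86 ± 0.07, the lysosomal potassium channel gene Tmem175 by 0.70 ± 0.09, and Dpp6, a partner of Kcnd pores, by 0.41 ± 0.09. Tmem38b, the second channel of the Tmem38a type, fell at least 1.58-fold and was not detected with fluoxetine (adjusted p = 0.0157). Abcc8, the sulphonylurea receptor (0.66), and Hcn4 (−0.65) were not called. Of the 9 regulators tested 3 rose, the repressor gene Rest (0.61 ± 0.09), the ubiquitin ligase gene Nedd4l (0.59 ± 0.09) and the kinase gene Wnk1 (0.46 ± 0.10), 1 fell, the kinase gene Wnk4 (−0.33 ± 0.08), and Akap9 (−0.44) and Sgk1 (−0.37) were not called.

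**Figure D5:**
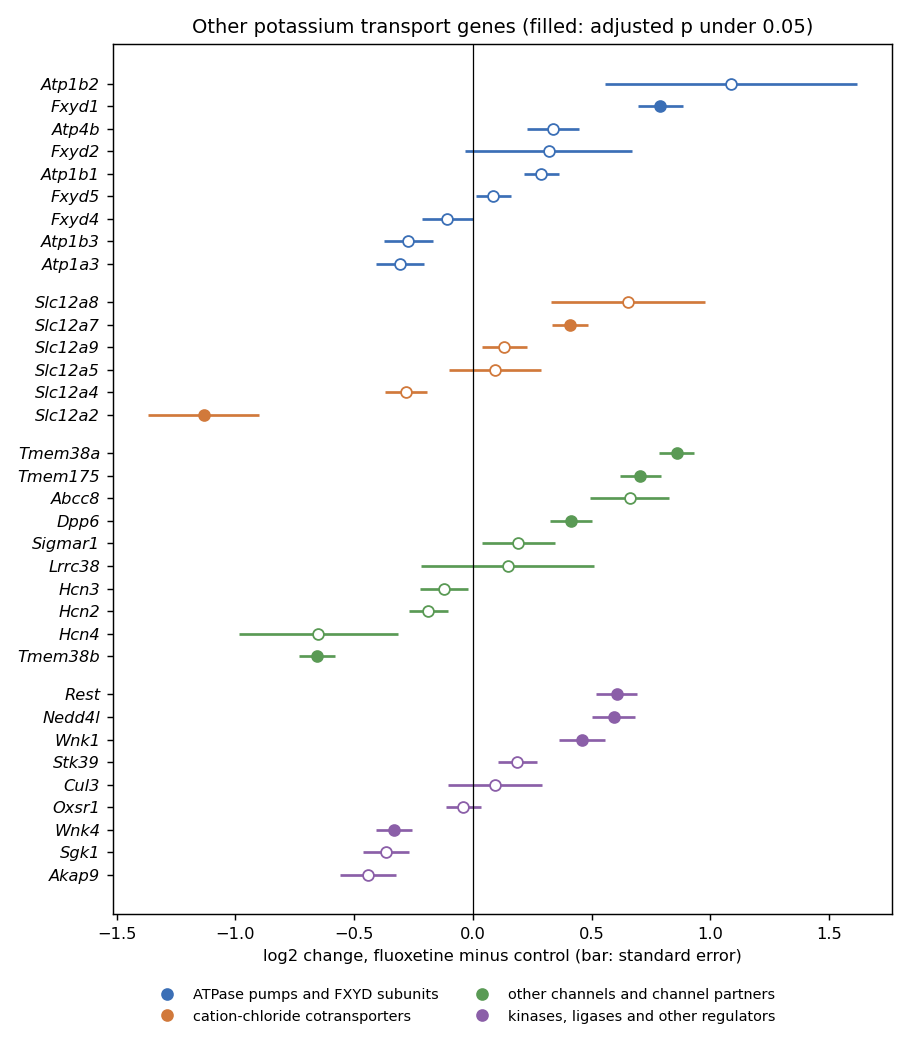
Log2 change, fluoxetine minus control (horizontal axis, with the standard error as bars), of 34 tested genes of potassium transport outside the Kcn symbols, in 4 lists; filled points have an adjusted p under 0.05. Slc12a2 (−1.13) is the largest called change and Tmem38a (0.86) the largest called rise.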

How the data were processed

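The authors extracted 4 single-colour Agilent arrays (Cy3) using Agilent's Feature Extraction software, version 12.1.0.3 per the file headers. Each deposited value is a linear intensity of a spot after background correction, unscaled between arrays, and the software also marks spots as well above background, saturated or non-uniform; later steps by the authors are not given in the sources used here. In R 4.3.3 with limma 3.58.1, control and non-uniform spots were left out (47 of 56605 probes), copies of the 300 probes printed 10 times were averaged as log2, and each array's 75th percentile over probes was subtracted. Accessions were matched without versions to RefSeq symbols of GRCm38.p6: 34645 probes had 1 symbol and 21913 none. The comparison used lmFit and eBayes with group as the only term and Benjamini-Hochberg adjustment over 13538 genes. With 2 arrays against 2, an exact permutation test cannot go below p = 0.333, and the number of arrays limits the precision.

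A gene dim on both arrays of 1 group has a bound, the brighter group's mean over the dim group's mean. Before this, any dim value under the smallest signal marked well above background on its array was raised to that signal. That signal is not a strict detection limit. Kcnj13, at 6.02% and 8.44% with fluoxetine, lay above it on both arrays (4.97% and 3.78%) but was marked on 1 only. The bounds are thus nominal, and the folds given as at least could be smaller. The rule was to name every tested gene of the set, but some genes and their results are not reported here, though counts include them; array values are given for called genes, bounds and, per subfamily, the largest and smallest uncalled changes. A few others were added after their values were seen. Members and lists were chosen with earlier results of these data known. The script was tested on simulated data. Alternatives were other background corrections, scalings, filters, probe summaries, variance models, blocks and leaving out each array.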

Additional observations from a re-analysis of the deposited data

How the results depend on the processing

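Over all settings the 13 called potassium channel genes kept their sign wherever measured. Kcnj9, which was not called, reversed: leaving out control 2 gave a change of 2.17 and leaving out control 1 gave −3.61. Both passed the threshold, but a lone array is assumed in every such fit to vary like those of the other group, and control 1 was not well above background for this gene, so neither value is taken as a change. Leaving out 1 array at a time gave 0 to 2662 called genes, 0 to 6 potassium channel genes higher, 0 to 6 lower and 0 to 11 related genes called, the zeros coming with either fluoxetine array left out (4070 and 4535 genes at an unadjusted p under 0.05). With dim probes kept in, limma called 0 genes (5272 at an unadjusted p under 0.05), with 0 potassium channel genes higher, 0 lower and 0 related genes. With median scaling 6294 genes were called and 13 potassium channel genes were higher. Potassium channel genes called lower numbered 4 with normexp background correction, 4 where a probe had to be well above background on all 4 arrays, which leaves out the dim genes by construction, and 4 with crossed replicate numbers as a block (2621 genes called). With the replicate number as a block 1859 genes were called, 7 of them related genes, and 4 potassium channel genes were higher and 6 lower. The replicate numbers were not shown to pair the arrays (Pearson's r = −0.12 across genes between the replicate differences of the groups; 2 pairs). Detection on at least 1 array of a group in place of both gave 37 genes in control and 35 with fluoxetine. The percentile over all spots, the crossed block and normexp on the median signal were chosen after seeing the data, the last because the files used hold no mean signal, for which normexp was planned and not run.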

Other observations

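Kcnq1ot1, a long non-coding RNA transcribed antisense from within the Kcnq1 gene and known for silencing neighbouring imprinted genes, starts with the same letters but has a non-coding accession and so was not counted. Of its 5 probes 4 were well above background on all 4 arrays, and these changed by −1.33, −1.34, −1.39 and −1.52. The gene's brightest probe was at 655% and 577% in control and 325% and 184% with fluoxetine, a fall of 1.33 ± 0.30 (adjusted p = 0.0450 in limma over all genes). The groups of all 4 probes did not overlap, as was so for 72.5% of all genes tested. No probe of Kcnq1 itself was well above background on any array.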
